A study of Mus musculus with 6 samples.

Results

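AMP-activated protein kinase (AMPK) and its upstream activators were examined through 9 of the 54532 genes in the expression table. The genes were chosen by name: the catalytic subunits Prkaa1 and Prkaa2, the beta subunits Prkab1 and Prkab2, the gamma subunits Prkag1 and Prkag2, and Stk11, Cab39 and Camkk2 upstream of them. RNA sequencing was performed on MC3T3-E1 cells, a mouse pre-osteoblast line that lays down mineralized matrix when induced. The control group was kept in osteogenic medium, which contains beta-glycerophosphate, ascorbic acid and dexamethasone, and the metformin group received 0.2 mM metformin in the same medium, with 3 samples in each group. Induction lasted 3 days in both. The dose and the time are given by the study's methods and not by the sample labels. No genotype differs between the groups, since both are the same cell line. The labels do not say whether the samples of a group came from separate cultures, so p-values measure the spread between these samples. All 8 osteoblast markers examined (Runx2, Sp7, Alpl, Col1a1, Bglap, Ibsp, Spp1 and Postn) had a mean level of at least 1 FPKM, from 2.94 to 5204 FPKM. Their summed level was 9553 to 11320 FPKM in the controls and 6045 to 6280 FPKM with metformin. Spp1 alone was at 8357, 8188 and 6565 FPKM in the controls and at 2680, 2727 and 2704 FPKM with metformin. The difference in the sum thus follows Spp1 and does not describe the markers as a set. Of the markers of other cell types, 1 of 5 for macrophages and blood cells (Cd68), 0 of 4 for endothelium, 1 of 4 for adipocytes (Fabp4) and 0 of 4 for skeletal muscle reached a mean of 1 FPKM, and Hbb-bs, Myod1 and Myog were at 0. The summed macrophage and blood markers were 1.97 to 2.18 FPKM in the controls and 1.12 to 1.35 FPKM with metformin, and their part in the results was not tested.

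AMPK is a sensor of cellular energy. It is a complex of a catalytic alpha subunit, a scaffolding beta subunit and a gamma subunit that binds AMP, ADP and ATP, and it is switched on by phosphorylation of the alpha subunit. LKB1 (encoded by Stk11), working with the pseudokinase STRAD and the scaffold MO25 (encoded by Cab39), provides this phosphorylation when AMP rises, and CaMKK2 provides it when calcium rises. Active AMPK restrains anabolic steps such as lipid and sterol synthesis and mTORC1 signaling. Metformin, a biguanide given in diabetes, is widely known to activate AMPK. The values here are mRNA levels, and neither the phosphorylation nor the activity of the kinase was measured.

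Levels are given as FPKM, in which the reads of a gene are divided by the gene length and by the size of the library, so that levels of different genes can be compared. For the comparison of groups, limma was fitted to log2(FPKM + 1) of all 12681 genes whose mean reached 0.5 FPKM, with Benjamini-Hochberg adjustment over all of them and a threshold of 0.05. The added 1 FPKM shrinks the fold changes of genes with low levels. All 9 genes passed the filter. The reads recovered behind the values were 18399861 to 20652437 per control sample and 19256672 to 22111790 per metformin sample. The lowest count behind any of the 9 genes was 159 reads, for Prkag1 in control replicate 1, and the highest was 3705 reads, for Cab39.

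Of the 9 genes, 1 was higher with metformin, Camkk2, where 13.2% of all tested genes were higher. In these bulk samples, a change in the mix of cell states and a change of mRNA per cell cannot be told apart. None of the 9 passed the threshold in the lower direction by limma, where 9.28% of all tested genes were lower. At an unadjusted p under 0.05, 2 of the 9 passed, Camkk2 higher and Prkaa1 lower. The share of all tested genes at this level was not counted and is at least the 22.5% called after adjustment. The called share of the 9 genes was 11.1%, beside 22.5% of all tested genes in either direction. The median log2 fold change of the 9 genes was 0.10, and that of all tested genes was 0.01. The groups did not overlap for 2 of the 9 genes, Prkaa1 and Camkk2, where 44.1% of all tested genes did not overlap.

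**Figure D1:**
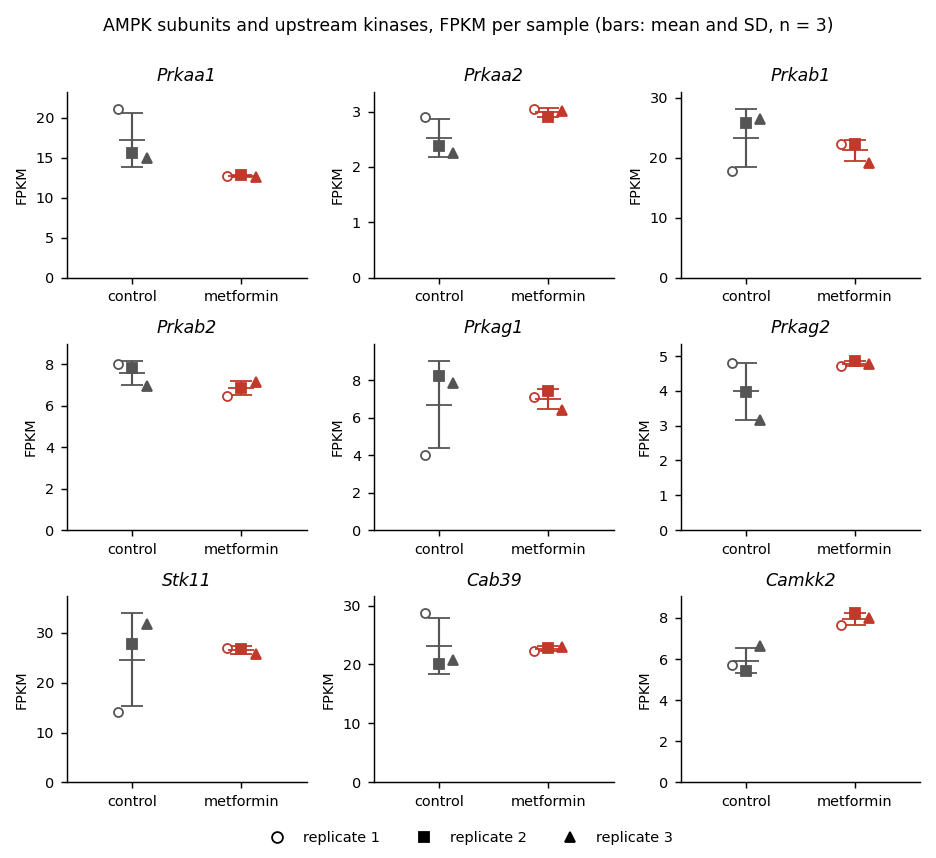
Each panel plots the FPKM of 1 gene in the 3 control samples (grey) and the 3 metformin samples (red), with the replicate number as the symbol and the mean and SD as bars. The metformin samples lie close together in every panel, and control replicate 1 (open circle) lies outside the range of the other 5 samples for 6 of the 9 genes.

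Control replicate 1 stood apart from the other libraries, and this touches the results below. Its Pearson correlations with the other controls, across genes on the log2 scale, were 0.960 and 0.952, while control replicates 2 and 3 had a correlation of 0.988. Its deviation from the other 2 controls ran against the GC content of a gene's longest transcript (Spearman's rho -0.67 across all tested genes, which share the same libraries). Among the 9 genes, the AT-rich Prkaa1 (40.2% GC) was higher in control replicate 1 than the mean of the other controls by 0.47 on the log2 scale. Cab39 (45.1% GC) was higher there by 0.49 and Prkag2 (50.1% GC) by 0.42. The GC-rich Stk11 (59.5% GC) had a log2 ratio of -1.08 and Prkab1 (55.0% GC) one of -0.56. Prkag1 (52.8% GC), at -1.01, lay further from zero than the median of tested genes of its GC content (-0.12), and Camkk2 (53.1% GC), at -0.08, lay close to it. Prkag2 lay off the trend as well, beside a median of -0.01. Cab39, Prkab1 and Stk11 lay further from zero than their medians of 0.22, -0.24 and -0.50. The medians were taken on log2(FPKM + 1) and the ratios of the 9 genes on FPKM. Over the 9 genes Pearson's r with GC content was -0.82 and Spearman's rho was -0.83 (n = 9 genes from the same libraries), and r was -0.83 without the 2 genes farthest from the median GC content. Results for the 9 genes are therefore given over all 6 samples, without control replicate 1, and after a GC correction. The correction removed a smooth trend with GC content from each library. Values of other genes are over all 6 samples unless another fit is named. Without control replicate 1, 43.8% of all tested genes passed the threshold in either direction, and with the GC correction 35.4% passed. The part of GC content in each difference was not tested beyond these alternatives.

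**Figure D2:**
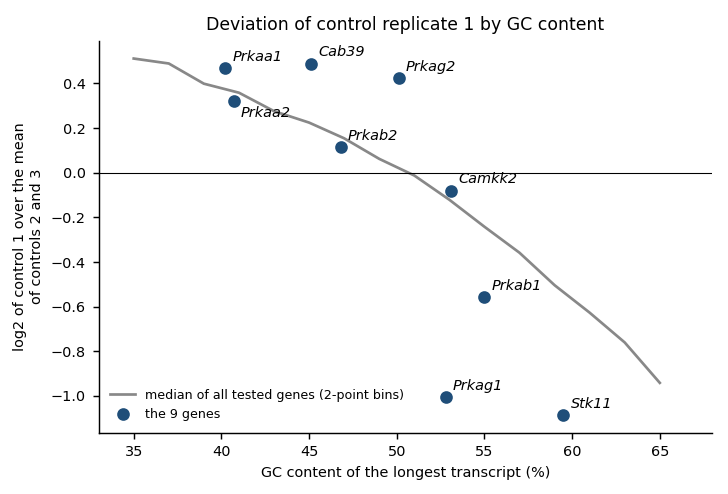
The log2 ratio of control replicate 1 to the mean of control replicates 2 and 3 (vertical axis) is plotted against the GC content of the longest transcript in percent (horizontal axis) for the 9 genes (points) and as the median of all tested genes (line). The points fall from 0.47 for Prkaa1 to -1.08 for Stk11. The line was taken on log2(FPKM + 1) and the points on FPKM.

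The catalytic subunits are described first. Prkaa1 encodes alpha1 and lies on chromosome 15 (chr15:5143861-5181899, plus strand, GRCm38), and Prkaa2 encodes alpha2 and lies on chromosome 4 (chr4:105029874-105109890, minus strand). The promoter windows of both genes and of Camkk2 are shown because the Prkaa2 share of the alpha pair, given below, did not overlap between the groups and Camkk2 was the gene called. Each holds 250 bases before the start of the gene and 50 after it, from RefSeq (GRCm38.p6), 5′ to 3′ on the strand of the gene, and capitals mark a GC box (GGGCGG or its reverse complement CCGCCC) or a CCAAT box (CCAAT or ATTGG).
Prkaa1, chr15:5143611-5143910, plus strand: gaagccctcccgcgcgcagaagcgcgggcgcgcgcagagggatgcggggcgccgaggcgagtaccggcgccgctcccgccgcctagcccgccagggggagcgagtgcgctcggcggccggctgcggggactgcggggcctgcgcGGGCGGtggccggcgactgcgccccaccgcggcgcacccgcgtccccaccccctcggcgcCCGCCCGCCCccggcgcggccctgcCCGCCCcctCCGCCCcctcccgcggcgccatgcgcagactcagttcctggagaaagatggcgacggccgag
Prkaa2, chr4:105109849-105110148, minus strand: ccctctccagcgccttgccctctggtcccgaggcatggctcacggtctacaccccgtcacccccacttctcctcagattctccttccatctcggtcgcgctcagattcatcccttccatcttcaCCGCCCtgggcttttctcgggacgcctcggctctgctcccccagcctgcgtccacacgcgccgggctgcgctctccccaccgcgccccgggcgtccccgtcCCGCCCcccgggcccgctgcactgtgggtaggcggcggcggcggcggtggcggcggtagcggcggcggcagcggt
Camkk2, chr5:122779361-122779660, minus strand: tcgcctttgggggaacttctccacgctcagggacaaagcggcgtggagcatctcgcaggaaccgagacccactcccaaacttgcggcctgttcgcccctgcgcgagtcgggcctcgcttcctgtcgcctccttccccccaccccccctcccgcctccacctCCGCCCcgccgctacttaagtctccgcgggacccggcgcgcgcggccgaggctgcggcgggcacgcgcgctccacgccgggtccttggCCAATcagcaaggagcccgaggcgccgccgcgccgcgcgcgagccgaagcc
The Prkaa1 window had a GC content of 82.0% and 52 CpG dinucleotides, the Prkaa2 window 72.7% and 35, and the Camkk2 window 73.3% and 42. The median window of all 32851 in the RefSeq table had a GC content of 52.7% and 7 CpG dinucleotides. The Prkaa1 window held 5 GC boxes, of which 2 overlap, the Prkaa2 window 2, and the Camkk2 window 1 together with 1 CCAAT box. All 9 genes had a window, 11 in all because Prkag2 has 3. A GC box was in 9 of the 11 windows, beside 35.7% of all windows, and a CCAAT box was in 5 of the 11, beside 37.4%. A TATA box with the letters TATAAA was in none of the 11 (13.6% of all windows). The E-box CACGTG was likewise in none (7.15% of all windows), and so was the cAMP response element TGACGTCA (1.79%). The forkhead motif GTAAACA was in 1 window, that of Stk11 (3.65% of all windows). Every motif was read on both strands. These matches describe the letters of the windows only.

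Prkaa1 was the main alpha subunit in every sample. Its level was 21.1, 15.6 and 14.9 FPKM in control replicates 1, 2 and 3 and 12.7, 12.9 and 12.6 FPKM in metformin replicates 1, 2 and 3. Every metformin sample was below every control sample. The means were 17.2 ± 3.40 FPKM in control and 12.7 ± 0.13 FPKM with metformin (SD, n = 3 each), with a log2 fold change of -0.39 (SE 0.14, 95% interval -0.72 to -0.07). The difference missed the threshold over all 6 samples (limma, Benjamini-Hochberg adjusted p = 0.083). Without control replicate 1 the log2 fold change was -0.25 with an adjusted p of 0.011 by limma, and with the GC correction it was -0.37 with an adjusted p of 0.0043. Prkaa1 was thus called in these 2 fits and not over all 6 samples uncorrected, with the same direction in each.

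Prkaa2 had the lowest level of the 9 genes. It was measured at 2.91, 2.39 and 2.26 FPKM in the control samples and at 3.06, 2.897 and 3.01 FPKM in the metformin samples. The groups overlapped, because metformin replicate 2 was just below control replicate 1. The log2 fold change was 0.18 (SE 0.10, 95% interval -0.05 to 0.42, limma adjusted p = 0.22). Without control replicate 1 it was 0.26 with a limma adjusted p of 0.026, and with the GC correction 0.20 with an adjusted p of 0.071.

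The balance between the alpha subunits differed between the groups with little spread. Prkaa2 made up 12.1%, 13.3% and 13.2% of the summed FPKM of Prkaa1 and Prkaa2 in the control samples and 19.4%, 18.4% and 19.2% in the metformin samples. All metformin samples were above all control samples, and control replicate 1 lay with the other controls on this measure. The mean share was 12.8% ± 0.64 in control and 19.0% ± 0.56 with metformin (SD, n = 3 each), a difference of 6.19 percentage points, or 5.82 points without control replicate 1. The exact two-sided permutation test over samples gave p = 0.1, which is the smallest p that 3 against 3 samples can give, and 0.3 after Benjamini-Hochberg adjustment over the 3 subunit pairs compared. The GC contents of the longest transcripts of Prkaa1 and Prkaa2 differ by 0.51 points. As a ratio, Prkaa1 was 7.27, 6.55 and 6.61 times Prkaa2 in the controls and 4.15, 4.44 and 4.20 times Prkaa2 with metformin. The summed level of the pair was 24.1, 18.0 and 17.2 FPKM in the controls and 15.7, 15.8 and 15.6 FPKM with metformin.

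**Figure D3:**
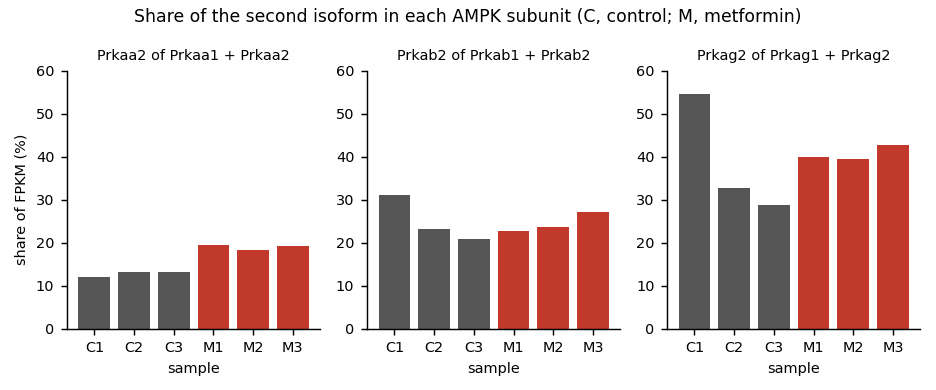
Bars give, for each control (C1 to C3) and metformin (M1 to M3) sample, the share in percent of the second isoform in the summed FPKM of the alpha, beta and gamma subunit pairs. The Prkaa2 share is between 12.1% and 13.3% in the controls and between 18.4% and 19.4% with metformin, while the Prkab2 and Prkag2 shares overlap between the groups and are highest in control replicate 1.

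The beta subunits hold the complex together and bind glycogen. Prkab1, which encodes beta1 (chr5:116013586-116024508, minus strand), was measured at 17.8, 25.8 and 26.4 FPKM in the controls and at 22.2, 22.3 and 19.2 FPKM with metformin. The groups overlapped, with control replicate 1 the lowest of the 6 samples. Prkab1 had a log2 fold change of -0.11 (SE 0.16, 95% interval -0.50 to 0.28, limma adjusted p = 0.67), or -0.29 without control replicate 1, with a limma adjusted p of 0.026. With the GC correction Prkab1 had a log2 fold change of -0.16 and did not pass (limma adjusted p = 0.24). Prkab2, which encodes beta2 (chr3:97658193-97673812, plus strand), was measured at 7.995, 7.83 and 6.93 FPKM in the controls and at 6.49, 6.87 and 7.16 FPKM with metformin. The groups overlapped here as well. Prkab2 had a log2 fold change of -0.13 (SE 0.09, 95% interval -0.34 to 0.08, limma adjusted p = 0.33), or -0.21 with the GC correction, with a limma adjusted p of 0.0496. Without control replicate 1, Prkab2 had a log2 fold change of -0.09 and did not pass (limma adjusted p = 0.35). Prkab2 made up 31.1%, 23.3% and 20.8% of the beta FPKM in the controls and 22.6%, 23.5% and 27.2% with metformin. The difference in this share was -0.58 percentage points (exact permutation p = 0.9), and it was 2.44 points without control replicate 1.

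The gamma subunits carry the nucleotide-binding sites. Prkag1, which encodes gamma1 (chr15:98812797-98831521, minus strand), was measured at 4.003, 8.22 and 7.86 FPKM in the controls and at 7.11, 7.43 and 6.396 FPKM with metformin. Control replicate 1 was the lowest of the 6 samples and the other controls included the highest. For Prkag1 the log2 fold change was 0.10 (SE 0.23, 95% interval -0.46 to 0.66, limma adjusted p = 0.79), and it turned to -0.18 without control replicate 1, where limma gave an adjusted p of 0.096. It was 0.06 with the GC correction (limma adjusted p = 0.83). Prkag2, which encodes gamma2 (chr5:24862744-25100642, minus strand), was measured at 4.79, 3.98 and 3.17 FPKM in the controls and at 4.72, 4.86 and 4.77 FPKM with metformin. The metformin samples of Prkag2 lay close together, and control replicate 1 fell among them. The log2 fold change of Prkag2 was 0.23 (SE 0.13, 95% interval -0.08 to 0.53, limma adjusted p = 0.25), and without control replicate 1 it was 0.34 with a limma adjusted p of 0.023. With the GC correction Prkag2 did not pass, at a log2 fold change of 0.18 (limma adjusted p = 0.30). Prkag2 made up 54.5%, 32.6% and 28.8% of the summed FPKM of Prkag1 and Prkag2 in the controls and 39.9%, 39.6% and 42.7% with metformin. The difference in this share was 2.10 percentage points (exact permutation p = 1.0) and 10.03 points without control replicate 1. The third gamma gene, Prkag3, is known from skeletal muscle and had a mean of 0.76 FPKM in control and 1.16 FPKM with metformin (log2 fold change 0.29, limma adjusted p = 0.12).

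Over all 6 samples, the genes of the LKB1 complex, Stk11 and Cab39, had the highest mean levels of the 9. In the control mean Prkab1, at 23.34 FPKM, was just above Cab39, at 23.18 FPKM. Stk11 (chr10:80115803-80130682, plus strand) encodes LKB1, a tumor suppressor kinase, and was measured at 14.1, 27.8 and 31.8 FPKM in the controls and at 27.03, 26.8 and 25.6 FPKM with metformin. The metformin samples lay inside the range of the controls, of which control replicate 1 was the lowest. Stk11 had a log2 fold change of 0.18 (SE 0.28, 95% interval -0.48 to 0.85, limma adjusted p = 0.69), which turned to -0.16 without control replicate 1 (limma adjusted p = 0.11) and was 0.10 with the GC correction (limma adjusted p = 0.61). Cab39 (chr1:85793441-85851576, plus strand), which encodes the MO25 scaffold, was measured at 28.7, 20.1 and 20.8 FPKM in the controls and at 22.2, 22.8 and 23.0 FPKM with metformin. Here control replicate 1 was the highest sample. Cab39 had a log2 fold change of -0.01 (SE 0.14, 95% interval -0.35 to 0.32, limma adjusted p = 0.96), which turned to 0.14 without control replicate 1 (limma adjusted p = 0.066) and was -0.08 with the GC correction (limma adjusted p = 0.54). The Stk11 to Cab39 ratio was 0.49 in control replicate 1 and 1.38 and 1.53 in the other controls, and 1.22, 1.18 and 1.12 with metformin. The STRAD genes, named to complete the complex, were low, with Strada at 3.03 FPKM in control and 2.64 FPKM with metformin and Stradb at 2.19 and 1.63 FPKM.

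Camkk2 (chr5:122731170-122779409, minus strand), which encodes the calcium- and calmodulin-dependent kinase that phosphorylates AMPK, rose with metformin. Its level was 5.70, 5.44 and 6.62 FPKM in the controls and 7.65, 8.22 and 7.98 FPKM in the metformin samples. All metformin samples were above all control samples, and control replicate 1 lay between the other controls. The means were 5.92 ± 0.62 FPKM and 7.95 ± 0.29 FPKM (SD, n = 3 each), a ratio of 1.34, with a log2 fold change of 0.37 (SE 0.09, 95% interval 0.16 to 0.59, limma adjusted p = 0.029). The log2 fold change was 0.35 without control replicate 1 (adjusted p = 0.018 by limma) and 0.33 with the GC correction (adjusted p = 0.018). Alternatives that ended the call included those with no filter on low values (adjusted p = 0.055) and without control replicate 2 or any 1 metformin replicate. Camkk2 had log2 fold changes between 0.32 and 0.45 and limma adjusted p between 0.018 and 0.13 over all alternatives. Camkk1, its paralog, was at 3.43 ± 0.40 FPKM in control and 4.06 ± 0.31 FPKM with metformin (log2 fold change 0.19, limma adjusted p = 0.21). The Camkk2 to Camkk1 ratio was 1.78, 1.71 and 1.70 in the controls and 1.92, 1.87 and 2.11 with metformin.

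**Figure D4:**
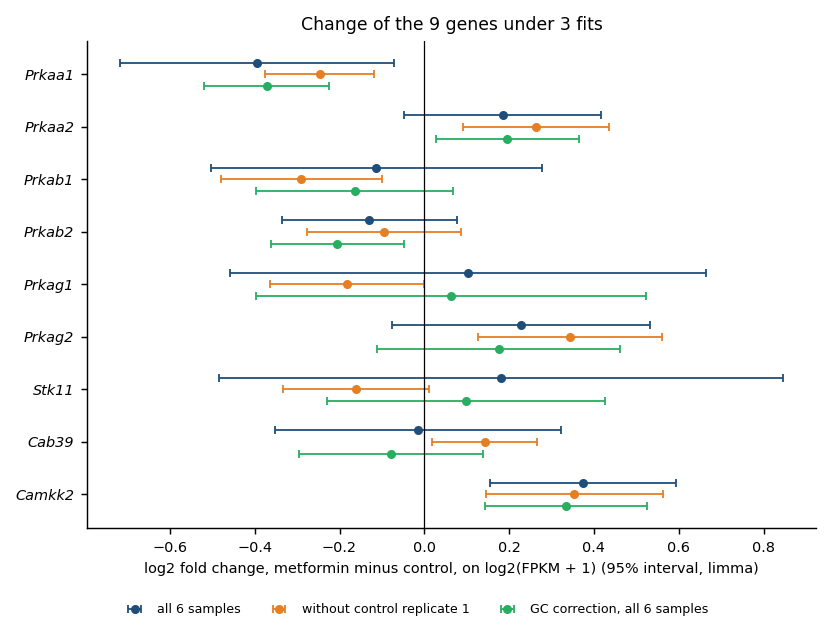
Points give the log2 fold change (metformin minus control, on log2(FPKM + 1)) of each of the 9 genes, and bars its 95% interval by limma, over all 6 samples (blue), without control replicate 1 (orange) and with the GC correction (green). Camkk2 lies above 0 and Prkaa1 below 0 in each of the 3 fits, and Prkag1, Stk11 and Cab39 change sign without control replicate 1.

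By mean level over the 6 samples, the order from the highest was Stk11, Cab39, Prkab1, Prkaa1, Prkab2, Camkk2, Prkag1, Prkag2 and Prkaa2. The ranges of Stk11, Cab39 and Prkab1 overlapped over the samples, as did those of Prkab1 and Prkaa1. Prkaa1 at its lowest, 12.6 FPKM, was above Prkab2 at its highest, 7.995 FPKM. Prkab2, Camkk2 and Prkag1 had overlapping ranges, and Prkag1 reached down to the range of Prkag2 only in control replicate 1. Prkaa2 at its highest, 3.06 FPKM, was below Prkag2 at its lowest, 3.17 FPKM. Several of these genes share exon bases with a gene on the other strand in the annotation, and whether the reads were counted by strand is not given in the sources used here. Stk11 shares 232 exon bases with Cbarp (mean 4.63 FPKM), Prkag1 shares 950 with B130046B21Rik (0.18 FPKM), and Prkag2 shares 795 with Prkag2os2 (0.11 FPKM). No transcript of another gene was near-identical to those of the 9 genes at 95% identity over at least 200 bases.

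The rest of the pathway was read from 6 lists with 66 genes, of which 59 passed the filter. Of these, 7 were higher and 6 lower with metformin, a called share of 22.0%, beside 22.5% of all tested genes. Without control replicate 1, 18 were higher and 12 lower, where 43.8% of all tested genes passed in either direction. With the GC correction 10 were higher and 11 lower, where 35.4% of all tested genes passed. The groups did not overlap for 32 of the 59, beside 44.1% of all tested genes. Over all 6 samples the share of called genes was thus near that of all genes. The account below names the called genes and uncalled genes of the highest level in each list.

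Among the other subunits and AMPK kinases (6 genes, 6 tested), none was called by limma, beside 22.5% of all tested genes. An unadjusted p under 0.05 was reached by 2 of the 6, a level that at least 22.5% of all tested genes reached. Without control replicate 1, 2 were called higher, where 43.8% of all tested genes passed in either direction. Map3k7, which encodes the kinase TAK1, was at 19.7 ± 4.83 FPKM in control and 23.7 ± 0.38 FPKM with metformin. Cab39l, the MO25 paralog, was at 3.59 ± 1.05 and 4.91 ± 0.03 FPKM (log2 fold change 0.39, limma adjusted p = 0.13). The Cab39 to Cab39l ratio was 6.01, 6.25 and 7.47 in the controls and 4.51, 4.61 and 4.71 with metformin. The groups did not overlap on this ratio, which was not tested, and 44.1% of all tested genes did not overlap either. Cab39l shares 261 exon bases with Cdadc1 (mean 3.47 FPKM) on the other strand. Of the 12 AMPK-related kinases that LKB1 also activates, 10 were tested and 1 was called. This was Nuak2, a stress-responsive kinase, at 0.70, 1.12 and 1.29 FPKM in the controls and 2.30, 1.98 and 1.98 FPKM with metformin (log2 fold change 0.61, limma adjusted p = 0.020). Nuak1, the paralog of Nuak2 and the most abundant kinase of this list, was at 65.2 ± 8.06 FPKM in control and 56.1 ± 0.83 FPKM with metformin (log2 fold change -0.21, limma adjusted p = 0.22). Mark2, a polarity kinase, was at 11.7 ± 3.03 and 13.5 ± 0.53 FPKM, and Sik1, a salt-inducible kinase, was at 10.5 ± 2.904 and 12.4 ± 0.61 FPKM.

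The AMPK regulators (9 genes, all tested) held 1 gene called higher and 2 called lower, or 33.3%, beside 22.5% of all tested genes. Without control replicate 1, 2 were higher and 5 lower, where 43.8% of all tested genes passed. With the GC correction 1 was higher and 5 were lower, where 35.4% passed. Sesn1 encodes a sestrin, a stress-induced protein that links amino acid and p53 signals to AMPK and mTORC1, and it fell most among all pathway genes listed. It was measured at 98.5, 87.5 and 75.2 FPKM in the controls and at 26.0, 25.8 and 25.6 FPKM with metformin. The groups were far apart, with a log2 fold change of -1.71 (SE 0.11, limma adjusted p = 0.00019). Sesn2, its paralog and an ATF4 target, lay the other way. It was at 28.5, 36.5 and 44.3 FPKM in the controls and 46.7, 48.6 and 47.6 FPKM with metformin. Sesn2 did not pass over all 6 samples (log2 fold change 0.40, limma adjusted p = 0.12) or without control replicate 1 (limma adjusted p = 0.066). With the GC correction Sesn2 passed (limma adjusted p = 0.014). Fnip2, a partner of folliculin that binds AMPK, fell from 9.03 ± 0.71 to 5.96 ± 0.11 FPKM (log2 fold change -0.52, limma adjusted p = 0.0060). Its paralog Fnip1 was at 19.1 ± 7.15 and 11.6 ± 0.80 FPKM (limma adjusted p = 0.10). Flcn, which encodes folliculin, was at 15.9 ± 2.93 and 12.1 ± 0.22 FPKM (limma adjusted p = 0.12). Without control replicate 1, Fnip1 and Flcn were called lower (limma adjusted p = 0.010 and 0.00099). With the GC correction Fnip1 and Flcn were called lower as well (limma adjusted p = 0.017 and 0.0070). Ppm1b, a phosphatase of the family that dephosphorylates AMPK, rose from 13.98 ± 1.19 to 18.3 ± 0.38 FPKM (log2 fold change 0.37, limma adjusted p = 0.027). With the GC correction Ppm1b did not pass (log2 fold change 0.31, limma adjusted p = 0.087). A near-identical gene, Gm7895, matches 1173 bases of Ppm1b.

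The adenine nucleotide enzymes set the AMP, ADP and ATP levels that AMPK reads. Of 15 genes, 13 were tested, 1 was called higher and 3 lower (30.8%, beside 22.5% of all tested genes). Ak4, a mitochondrial adenylate kinase, rose from 0.82 ± 0.21 to 2.19 ± 0.31 FPKM (log2 fold change 0.81, limma adjusted p = 0.0051), and Ak3l2-ps is near-identical to it over 672 bases. Ak3, the mitochondrial kinase that uses GTP, was at 80.4, 55.9 and 48.8 FPKM in the controls and at 38.8, 38.4 and 39.0 FPKM with metformin (log2 fold change -0.63, limma adjusted p = 0.049). Ak3 shares 430 exon bases with Cdc37l1 (mean 12.0 FPKM) on the other strand, and 1700018L02Rik matches 283 bases of Ak3. Nt5e, the ecto-5′-nucleotidase CD73 that turns extracellular AMP into adenosine, fell from 9.47, 7.11 and 6.03 FPKM to 2.06, 2.61 and 2.26 FPKM (log2 fold change -1.35, limma adjusted p = 0.0016). Nt5c2, a cytosolic nucleotidase, fell from 17.6 ± 1.19 to 12.4 ± 0.93 FPKM (log2 fold change -0.47, limma adjusted p = 0.013). The abundant Ak1 was at 101 ± 14.5 and 109 ± 3.91 FPKM, and Aprt was at 70.6 ± 7.02 and 74.6 ± 4.81 FPKM. Neither passed the test.

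Calmodulin carries the calcium signal to CaMKK2. Of the 7 genes for calmodulin and its kinases, 6 were tested and 1 was called (16.7%, beside 22.5% of all tested genes). Calm2 rose from 215.5, 229.1 and 174.4 FPKM in the controls to 290.4, 299.1 and 295.5 FPKM with metformin (log2 fold change 0.52, limma adjusted p = 0.025). Calm2 has near-identical copies in Gm7308 and Gm15720. Calm3, another calmodulin gene, was at 106 ± 19.4 and 127 ± 4.17 FPKM (log2 fold change 0.29, limma adjusted p = 0.22). Camk1, a kinase downstream of CaMKK, was at 9.06 ± 1.27 and 10.6 ± 0.16 FPKM (limma adjusted p = 0.20).

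Of 17 genes for AMPK substrates, 15 were tested, 3 were called higher and 1 lower (26.7%, beside 22.5% of all tested genes). AMPK acts on these proteins by phosphorylation, which these data do not show. Tbc1d1, a Rab GTPase-activating protein of glucose transporter traffic, rose from 5.43, 4.43 and 4.25 FPKM to 7.83, 8.09 and 7.11 FPKM (log2 fold change 0.61, limma adjusted p = 0.0082). Gys1, glycogen synthase, rose with a log2 fold change of 0.61 (limma adjusted p = 0.0077). Gys1 shares 310 exon bases with Ruvbl2 on the other strand. Foxo3, a forkhead factor of the stress response, fell from 49.7, 48.0 and 57.7 FPKM to 26.5, 26.7 and 25.9 FPKM (log2 fold change -0.94, limma adjusted p = 0.00090). Hdac5, Ulk1 and Srebf1, the most abundant of the uncalled substrates, had log2 fold changes of -0.03, -0.11 and 0.06. Of the called genes named here, Sesn1, Fnip2, Ak4, Nt5e, Tbc1d1, Gys1 and Foxo3 were called in all 6 fits that left out 1 library, while Nt5c2 was called in 4, Nuak2, Ppm1b and Calm2 in 3 and Ak3 in 2.

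**Figure D5:**
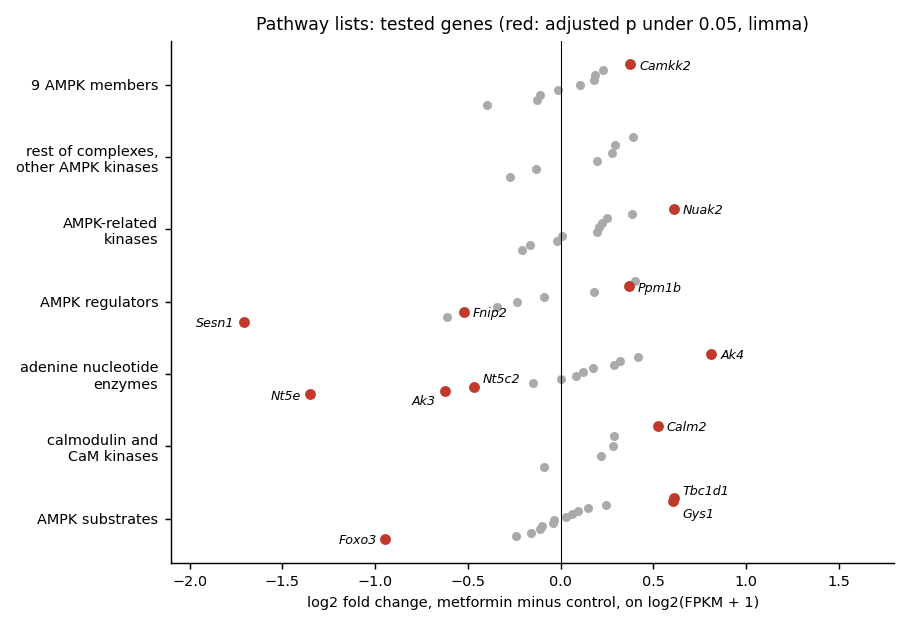
Each point is a tested gene at its log2 fold change (metformin minus control, on log2(FPKM + 1), horizontal axis), with 1 band for the 9 genes and 1 for each of the 6 pathway lists. Genes not reported by name are not drawn, and red points have a limma adjusted p under 0.05. Sesn1 at -1.71 and Ak4 at 0.81 are the ends of the range drawn.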

How the data were processed

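RNA sequencing libraries were made from total RNA with an Illumina TruSeq kit. The authors deposited 1 table with a value per gene and sample that names no unit. The values were taken as FPKM, since each value times the deposited gene length (in base pairs, definition not given in the sources used here) is a whole number of reads times 1 step per sample (tolerance 0.05 reads). Another unit scaled by gene length and library would give the same pattern, so the unit is inferred. The authors tested differences with DESeq2. The submitters' processing notes name Bowtie 0.12.2 and the builds mm8 and mm9, with no role stated, but 53499 of the 54532 identifiers have the start and end of GENCODE M21 (GRCm38), the 9 genes among them, and coordinates are given on that build. The table held 0 other columns of per-sample values.

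Samples were grouped by their labels. Genes with a mean of at least 0.5 FPKM (12681) were compared with limma 3.58.1 in R 4.3.3 (intensity trend, log2(FPKM + 1), Benjamini-Hochberg, all 6 samples, no covariate), and shares were compared by an exact two-sided permutation test (scipy 1.17.1). On simulated reads, the fit called 193 of 200 changed genes and 18 unchanged ones, of 12681 genes. The simulation set the same spread in both groups and no GC trend, unlike these data, so it does not test the fit under their conditions. The alternatives were a replicate block, since the labels number the samples without saying that numbers belong together, a pseudocount of 0.1, total-read scaling, no filter, at least 10 reads in every sample, voom on the recovered reads, a GC correction within each library (spline with 5 degrees of freedom) and leaving out each sample. Intervals are 95% intervals of the limma fit. Near-identical transcripts were found with BLAST+ 2.17.0. All 9 genes are named, with the called genes of each list and at most 3 uncalled genes of the highest mean. Overlapping or near-identical genes are named for some of these genes and not for all. Prkag3, Strada and Stradb were added after their values were seen. The 9 genes, the lists and the alternatives were chosen with earlier results of these data known. Some genes of the lists are counted but not reported by name here. Protein sequences were not used here.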

Additional observations from a re-analysis of the deposited data

How the results depend on the processing

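Over 14 alternatives, 110 of the 126 comparisons for the 9 genes kept their direction and their side of the threshold, 7 passed it only in the alternative, 6 lost it and 3 turned in sign. Leaving out 1 library gave log2 fold changes of -0.18 to 0.26 for Prkag1, -0.16 to 0.40 for Stk11 and -0.10 to 0.14 for Cab39. The number of the 9 genes called higher was 1, and it was 0 with no filter, 0 with the replicate block (Camkk2, limma adjusted p = 0.09) and 0 to 3 when 1 library was left out. The number called lower was 0, and it was 2 with the GC correction, 1 with the replicate block and GC correction and 0 to 2 when 1 library was left out. Of the 59 other pathway genes, 7 were higher, which became 4 with the replicate block and 4 to 18 without 1 library, and 6 were lower, which became 11 with the GC correction and 4 to 12 without 1 library. The highest counts in each case came without control replicate 1. Over all tested genes, 1670 were higher and 1177 lower, against 1161 and 698 with the replicate block, 2062 and 2433 with the GC correction, 1703 and 1888 with the replicate block and GC correction, and 2969 and 2590 without control replicate 1, and against 938 to 2969 and 495 to 2590 when 1 library was left out. The recovered reads were whole for 100% of values, and voom on them called 1776 higher and 1237 lower. The higher share of calls was 58.7% and 45.9% with the GC correction, which moved the median log2 fold change by -0.05. Same-numbered samples had correlations of their deviations of -0.05, 0.0003 and -0.05, and 0 of the 6 samples correlated best with their own number. These values show no pairing by number but cannot settle whether the numbers pair the samples. Deviations between the metformin samples were small, and that of control replicate 1 followed GC content. The cause of the changes between alternatives was not tested.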

Other observations

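The spread between the metformin samples was nearer to the counting error of the reads than that between the control samples, and above it in the median gene. For the 9 genes, the chi-square of the reads over the 3 samples of a group (2 degrees of freedom, where counting alone gives a median of 1.39 and values above 5.99 for 5% of genes) ranged from 0.25 to 18.4 with metformin, and 8 of the 9 genes were under 5.99. In the controls it ranged from 8.61 to 600.5, and 0 of the 9 genes were under 5.99. The coefficient of variation of the 9 genes was 1.00% to 8.43% with metformin and 7.57% to 37.9% in the controls, and it was smaller with metformin for 9 of the 9. The median chi-square over the 9 genes was 3.36 with metformin and 66.3 in the controls. Over all tested genes the median chi-square was 3.69 with metformin and 22.9 in the controls. The reason for the unequal spread was not tested.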
